A study of Mus musculus with 6 samples.

Results

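The genes of neutrophil granule proteins were followed in RNA-Seq of CX3CR1-EGFP+ osteoclast precursors. The set was fixed by name, with 5 genes set down as azurophil (Mpo, Elane, Prtn3, Ctsg and Ms4a3) and 5 as specific granule genes (Ltf, Camp, Ngp, Fcnb and Cybb). All 10 were found among the 24346 gene symbols of the tables, and all 10 belonged to the 11301 genes tested, those with 1 FPKM or more in any of the mice. In the study, LPS (20 mg/kg) was injected into the calvarial periosteum of CX3CR1-EGFP knock-in mice, in which the CX3CR1 promoter drives the green reporter. From that day, 3 mice were dosed by mouth with ABT-317, a JAK1 inhibitor, at 60 mg/kg and 2 doses per day, and 3 received vehicle, and EGFP+ cells were sorted from calvarial bone marrow after 5 days. These doses and times come from the methods of the study, while the labels name the groups as inhibitor-treated or vehicle-treated cells and give no dose. The comparison asked how the inhibitor altered precursors of osteoclasts under inflammation. The age and sex of these mice are not given in the sources used here, the sort is described by EGFP alone, and mice without LPS or with inhibitor alone were not analysed here.

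Neutrophils fill their granules in an order set by their maturation. Azurophil granules are filled at the promyelocyte stage with myeloperoxidase and serine proteases, specific granules are filled later in myelocytes and metamyelocytes, and gelatinase granules and secretory vesicles follow, so that the mRNA of a granule protein marks the stage at which it is made. Granulocyte-monocyte progenitors and early monocyte precursors also transcribe the azurophil genes, and this transcription is known to depend on the factors PU.1, C/EBP, RUNX1 and MYB. Ms4a3, a membrane protein of the MS4A family, is known as a marker of granulocyte-monocyte progenitors rather than as a granule protein, and Cybb is made in monocytes and macrophages as well as in neutrophils.

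The promoters of the genes on which the comparison turns are shown so that genes with different responses can be compared by sequence. Each is the run of 250 bases before the RefSeq start site on GRCm38.p6, printed 5′ to 3′ on the strand of the gene. They lie at chr11:87793534-87793783 (plus strand) for Mpo, chr10:79886062-79886311 (plus) for Elane, chr10:79879417-79879666 (plus) for Prtn3, chr14:56102575-56102824 (minus) for Ctsg, chr19:11640852-11641101 (minus) for Ms4a3, chr9:109849457-109849706 (minus) for Camp and chr2:28084879-28085128 (minus) for Fcnb. Capitals mark GAGGAAG, the letters of an ETS family site such as that of PU.1, and TTGCNNAA, part of a C/EBP site, on either strand. Start sites differ between annotations. The GENCODE genes of Mpo, Elane, Camp and Fcnb begin inside the windows shown, that of Prtn3 begins upstream of its window, which lies within the gene, and those of Ctsg and Ms4a3 begin at the end of theirs.
Mpo: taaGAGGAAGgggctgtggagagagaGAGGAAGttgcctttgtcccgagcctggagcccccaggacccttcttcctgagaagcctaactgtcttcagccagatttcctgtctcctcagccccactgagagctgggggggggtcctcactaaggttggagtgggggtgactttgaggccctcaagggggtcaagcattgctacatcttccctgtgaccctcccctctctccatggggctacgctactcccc
Elane: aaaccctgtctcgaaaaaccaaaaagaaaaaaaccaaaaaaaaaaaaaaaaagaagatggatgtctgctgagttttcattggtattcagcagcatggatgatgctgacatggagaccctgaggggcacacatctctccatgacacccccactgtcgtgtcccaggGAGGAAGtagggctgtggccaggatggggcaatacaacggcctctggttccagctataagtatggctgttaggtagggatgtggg
Prtn3: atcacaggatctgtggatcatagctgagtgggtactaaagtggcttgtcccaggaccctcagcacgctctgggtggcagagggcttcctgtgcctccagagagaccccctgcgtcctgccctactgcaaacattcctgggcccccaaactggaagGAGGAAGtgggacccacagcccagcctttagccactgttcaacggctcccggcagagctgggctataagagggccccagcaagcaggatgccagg
Ctsg: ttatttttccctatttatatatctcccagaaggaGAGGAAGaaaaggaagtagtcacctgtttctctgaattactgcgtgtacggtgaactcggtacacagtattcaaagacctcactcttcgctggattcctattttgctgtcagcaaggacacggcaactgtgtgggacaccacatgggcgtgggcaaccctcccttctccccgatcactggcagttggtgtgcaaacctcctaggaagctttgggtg
Ms4a3: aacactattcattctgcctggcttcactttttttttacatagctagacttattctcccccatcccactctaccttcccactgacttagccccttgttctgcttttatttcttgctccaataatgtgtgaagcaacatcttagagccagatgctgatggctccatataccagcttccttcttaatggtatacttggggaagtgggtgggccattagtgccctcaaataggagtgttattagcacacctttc
Camp: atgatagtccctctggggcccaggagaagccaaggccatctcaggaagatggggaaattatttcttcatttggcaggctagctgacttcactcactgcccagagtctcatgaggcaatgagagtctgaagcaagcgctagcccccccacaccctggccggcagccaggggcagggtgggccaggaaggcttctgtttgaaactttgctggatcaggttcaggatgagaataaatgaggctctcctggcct
Fcnb: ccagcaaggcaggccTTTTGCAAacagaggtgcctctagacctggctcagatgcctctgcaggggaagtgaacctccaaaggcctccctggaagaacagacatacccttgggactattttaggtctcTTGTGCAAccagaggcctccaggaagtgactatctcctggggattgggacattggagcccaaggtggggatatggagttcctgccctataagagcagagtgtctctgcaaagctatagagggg

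Windows of this kind were found for all 10 genes and searched for 7 motifs, which were chosen with the windows in view. That of Cybb, which is not shown, lies within its GENCODE gene, as that of Prtn3 does. GAGGAAG stood in Mpo, Elane, Prtn3 and Ctsg but not in Ms4a3 or in any of the 5 specific granule genes, against 10.6% of all 32851 windows. In Elane and Prtn3, which are neighbours, it lay 85 and 95 bases before the start. The search took these exact letters, and other forms of an ETS site were not searched. The shorter AGGAAG also stands in the windows shown for Camp and Fcnb, and GGAAG in that of Ms4a3. The split is thus one of the longer string and does not show that the other windows lack ETS letters. TTGCNNAA stood in Ltf, Ngp and Fcnb and in none of the azurophil genes, against 9.6% of windows. AACNG, the core of a MYB site, was found in 9 of the 10 genes, with Ms4a3 as the exception, but it is present in 74.2% of windows. TGTGGT of RUNX stood in Ctsg and Cybb (14% of windows), TTCNNNGAA of STAT in Ctsg (7% of windows), TATAA in Elane, Prtn3, Ctsg and Fcnb (22.8%), and CCAAT in Elane, Ms4a3, Ltf, Ngp, Fcnb and Cybb (33.8%). Camp and Ms4a3 held none of the marked letters. TTGCNNAA and CCAAT can overlap, as in Ltf, where they begin 75 and 76 bases before the start. These are matches of letters and not measured binding.

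The 10 genes were abundant in the sorted cells. Mpo ranked 8 among all genes by mean FPKM, Elane 16, Prtn3 59, Ctsg 84 and Ms4a3 210, whereas the specific granule genes ranked from 239 (Camp) to 2460 (Ltf). Together the 10 genes made up 1.95% to 2.12% of the summed FPKM in JAK inhibitor-treated mice and 0.841% to 1.48% in vehicle-treated mice. The values are FPKM, which are scaled per transcript length, and levels of different genes are compared on that scale. The FPKM of all genes summed to between 688372 and 775790 per mouse, the scaling factors by the median ratio were between 1.002 and 1.014, and the absolute depth is unknown. Among markers of the labelled cells, Csf1r had 355 to 422 FPKM, Ly6c2 2751 to 4617 and Cx3cr1 itself 15.5 to 36.1. Of the monocyte list, Cx3cr1, Ly6c2 and F13a1 were the lowest of all mice in vehicle-treated mouse 3. The other genes of the list were not, since Ms4a6c (478 FPKM) was the highest there, with Csf1r at 417 and Ccr2 at 194 FPKM. In bulk RNA, a different number of granulocyte-lineage cells and a different amount of mRNA per cell cannot be told apart.

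Genes of both granule stages lay above vehicle with JAK inhibitor, and others of both stages did not. Mpo, Elane and Prtn3 among the azurophil genes and Camp and Fcnb among the specific granule genes were higher in every JAK inhibitor-treated mouse than in every vehicle-treated mouse, Ms4a3 was lower, and Ctsg, Ltf, Ngp and Cybb overlapped. No member passed an adjusted p of 0.05 in limma, which 0.133% of the tested genes did (15 genes). At an unadjusted p under 0.05 in limma, 5 of the 10 were higher (3 azurophil and 2 specific), against 6.57% of tested genes, and 1 was lower, against 9.4%. Groups without overlap had the same 5 genes higher and the same gene lower, against 9.92% and 12.1% of tested genes. Because the genes were chosen with earlier results of these data known, these counts and shares are a description and not a test of the set. The median log2 fold change was 0.47 over the azurophil genes and 0.63 over the specific granule genes, a difference of -0.16, beside a median of -0.0035 over all tested genes. With 3 mice against 3, the exact 2-sided permutation test of a gene cannot go below p = 0.1.

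**Figure D1:**
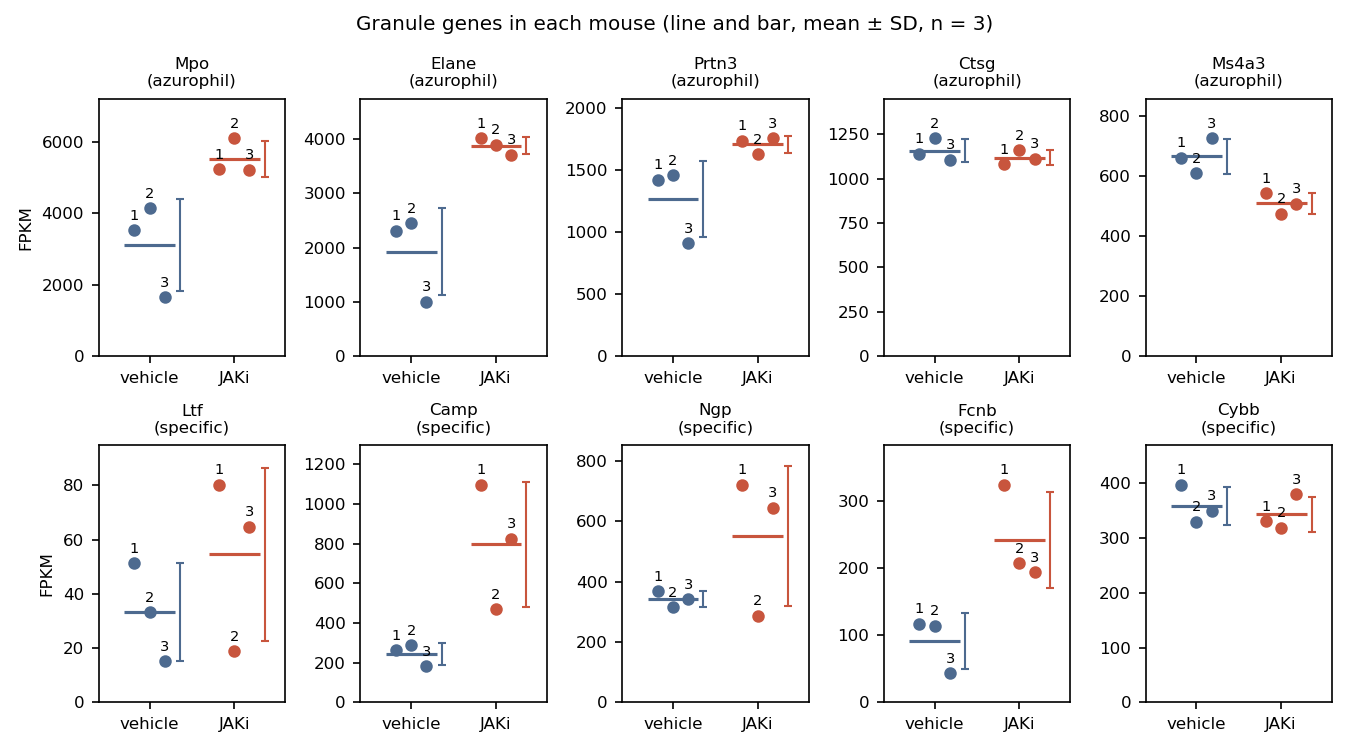
FPKM of the 10 genes (y axis, from 0, a scale for each gene) in 3 vehicle-treated and 3 JAK inhibitor-treated (JAKi) mice (x axis); each point is a mouse with its number, the line is the mean and the bar the SD. Mpo, Elane, Prtn3, Camp and Fcnb did not overlap and were higher with JAK inhibitor, Ms4a3 did not overlap and was lower, and vehicle-treated mouse 3 was lowest for 6 of the 10 genes.

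Among the azurophil genes, the peroxidase and the elastase stood furthest from vehicle. Mpo (chromosome 11, 87793581 to 87804413, GENCODE M21 on GRCm38), which encodes myeloperoxidase, the enzyme that makes hypochlorous acid from hydrogen peroxide, had an FPKM of 5234, 6106 and 5216 in mice 1 to 3 of the JAK inhibitor group and of 3531, 4135 and 1650 in mice 1 to 3 of the vehicle group. The JAK inhibitor-treated mice thus lay close together and above all vehicle-treated mice, among which mouse 3 was far below the others. The means were 5519 ± 508 and 3105 ± 1296 (SD, n = 3 each), and the log2 fold change was 0.93 (standard error 0.29, limma adjusted p = 0.182).

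Elane (chromosome 10, 79886247 to 79888215), the gene of neutrophil elastase, showed the same order of the groups. Its FPKM was 4023, 3903 and 3713 with JAK inhibitor and 2316, 2452 and 1003 with vehicle, so that the treated mice differed by 1.08-fold among themselves and the vehicle-treated mice by 2.45-fold. The log2 fold change of 1.12 (standard error 0.29) corresponds to a 2.17-fold higher level and had a limma adjusted p of 0.136. Prtn3 (chromosome 10, 79874476 to 79883174) encodes proteinase 3 and lies 3072 bases from Elane in the same orientation. It had 1735, 1626 and 1755 FPKM with JAK inhibitor and 1420, 1455 and 910 with vehicle, again without overlap. The distance was smaller than for its neighbour, at 1.38-fold or 0.47 on the log2 scale (standard error 0.17, limma adjusted p = 0.225).

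These distances depended in part on vehicle-treated mouse 3. Without it, the log2 fold change was 0.53 for Mpo, 0.70 for Elane and 0.25 for Prtn3. The groups did not overlap with all mice, so leaving a mouse out could not make them overlap. The spread among vehicle-treated mice was smaller as well, and the limma adjusted p of Elane was then 0.0101. Without that mouse 94 of all tested genes passed the adjusted threshold, against 15 with all mice. Over the 14 alternatives the limma adjusted p of Elane ranged from 0.0101 to 0.332.

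Ctsg and Ms4a3 did not share this pattern. Ctsg (chromosome 14, 56099881 to 56102574) encodes cathepsin G, a serine protease packed in the same granules, and had 1082, 1161 and 1112 FPKM with JAK inhibitor and 1140, 1228 and 1106 with vehicle. All 6 mice lay within 1.14-fold of each other, including vehicle-treated mouse 3. The log2 fold change was -0.05 with a 95% interval from -0.24 to 0.14 in limma, which leaves out changes of the size estimated for Mpo, Elane and Prtn3. Ms4a3 (chromosome 19, 11629496 to 11640851) had 543, 474 and 508 FPKM with JAK inhibitor and 661, 609 and 726 with vehicle. Here every treated mouse was below every vehicle-treated mouse, and vehicle-treated mouse 3 was the highest of the 6. The log2 fold change was -0.39 (standard error 0.10, limma adjusted p = 0.123), and it was between -0.45 and -0.32 over the 14 alternative analyses.

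Ratios within a mouse, which do not depend on how its library was scaled, showed the same split of the azurophil genes. The ratio of Elane to Ctsg was 3.72, 3.36 and 3.34 in JAK inhibitor-treated mice and 2.03, 2 and 0.907 in vehicle-treated mice. That of Mpo to Ctsg was 4.84, 5.26 and 4.69 against 3.1, 3.37 and 1.49. For Elane to Ms4a3 it was 7.41, 8.24 and 7.31 against 3.51, 4.03 and 1.38, the widest gap of these ratios. None of them overlapped between the groups, whereas the ratio of Mpo to Elane did, with 1.3, 1.56 and 1.41 against 1.53, 1.69 and 1.65. These pairs were chosen after the values were seen and are given as a description. For Elane to Ms4a3 the outcome was fixed, since Elane was higher and Ms4a3 lower without overlap.

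**Figure D2:**
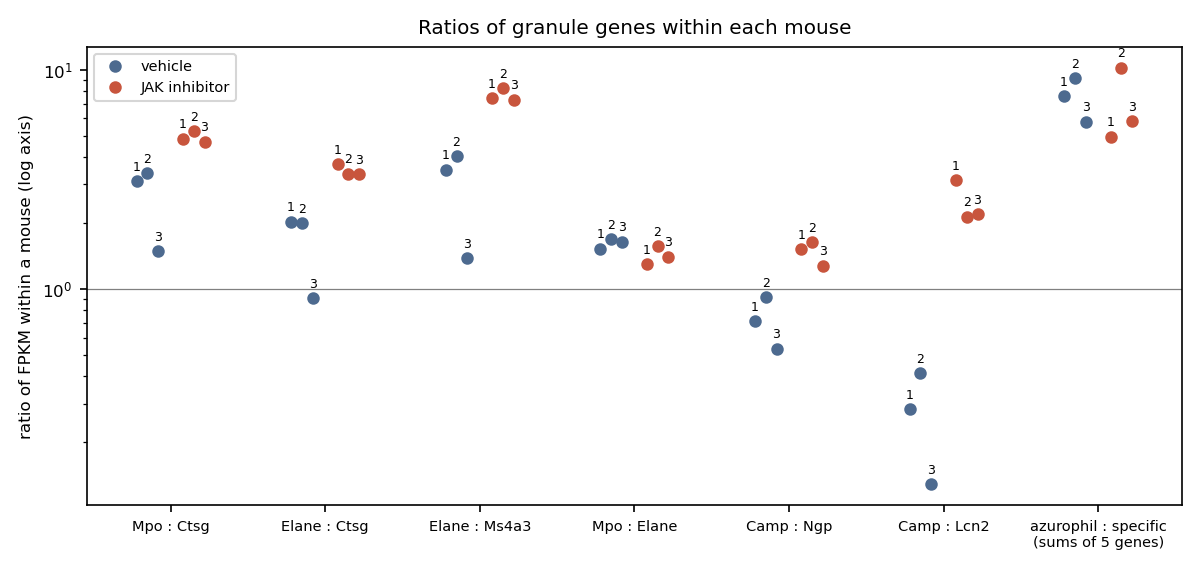
Ratio of FPKM of gene pairs within each mouse (y axis, log scale) for vehicle-treated and JAK inhibitor-treated mice (points, with the number of the mouse), and at the right the ratio of the summed FPKM of the 5 azurophil to the 5 specific granule genes. The ratios of Mpo and Elane to Ctsg, of Elane to Ms4a3, of Camp to Ngp and of Camp to Lcn2 did not overlap between the groups. For Elane to Ms4a3 and Camp to Lcn2 this follows from the single genes, which lay on opposite sides of vehicle without overlap. The ratio of azurophil to specific genes overlapped, with 4.94 to 10.2 against 5.79 to 9.14.

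Among the specific granule genes, Camp and Fcnb stood apart from the others. Camp (chromosome 9, 109847379 to 109849617), the gene of the cathelicidin CRAMP, an antimicrobial peptide precursor, had 1097, 470 and 824 FPKM in JAK inhibitor-treated mice and 264, 289 and 182 in vehicle-treated mice. The lowest treated mouse was still above the highest vehicle-treated mouse. Its means were 797 ± 314 and 245 ± 55.9 (SD, n = 3 each), and its log2 fold change, 1.64 or 3.12-fold, was the largest of the 10 genes (standard error 0.29, limma adjusted p = 0.0781). The adjusted p in limma was below 0.05 when JAK inhibitor-treated mouse 2 (0.0448) or vehicle-treated mouse 2 (0.0499) was left out, and with weights for each library (0.0385). It ranged from 0.0385 to 0.246 over the alternatives.

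Fcnb (chromosome 2, 28076378 to 28084885) encodes ficolin B, a lectin that binds sugars on microbes and can start the lectin pathway of complement. It had 325, 207 and 194 FPKM with JAK inhibitor against 117, 115 and 43.6 with vehicle. Treated mouse 1 was the highest and vehicle-treated mouse 3 the lowest, and the groups did not overlap. The log2 fold change was 1.48 (standard error 0.36, limma adjusted p = 0.118), and it was 1.02 without vehicle-treated mouse 3, where the limma adjusted p was 0.0455. Over the alternatives the limma adjusted p of Fcnb ranged from 0.0443 to 0.324.

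Ltf, Ngp and Cybb overlapped between the groups. Ltf (chromosome 9, 111019271 to 111042767), which encodes the iron-binding protein lactoferrin, had the lowest level of the 10 genes, with 80.3, 18.8 and 64.8 FPKM against 51.4, 33.3 and 15.1. Ngp (chromosome 9, 110419747 to 110423012), a granule protein related to cathelicidins and cystatins, had 722, 287 and 645 against 369, 315 and 342. In both genes JAK inhibitor-treated mice 1 and 3 lay above every vehicle-treated mouse and mouse 2 did not. The log2 fold changes were 0.63 (95% interval -0.61 to 1.87 in limma) for Ltf and 0.58 (95% interval -0.08 to 1.25 in limma) for Ngp. Without JAK inhibitor-treated mouse 2 they were 1.25 and 0.998, with a limma adjusted p of 0.343 for Ltf and 0.0448 for Ngp, and without vehicle-treated mouse 3 that of Ltf was 0.16. Without JAK inhibitor-treated mouse 1 they were 0.23 and 0.34. The limma adjusted p of Ngp ranged from 0.0448 to 0.68 over the alternatives.

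Cybb (chromosome X, 9435252 to 9487771), the catalytic subunit of the NADPH oxidase, had 330, 318 and 379 FPKM with JAK inhibitor and 397, 329 and 350 with vehicle. All mice were within 1.25-fold of each other, and the log2 fold change of -0.07 had a 95% interval from -0.30 to 0.17 in limma. Camp, Ngp and Ltf lie on the same chromosome but 570 kb or more apart. The ratio of Camp to Ngp within a mouse was 1.52, 1.63 and 1.28 with JAK inhibitor and 0.716, 0.919 and 0.534 with vehicle, so in this ratio mouse 2 was not apart from the other treated mice.

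**Figure D3:**
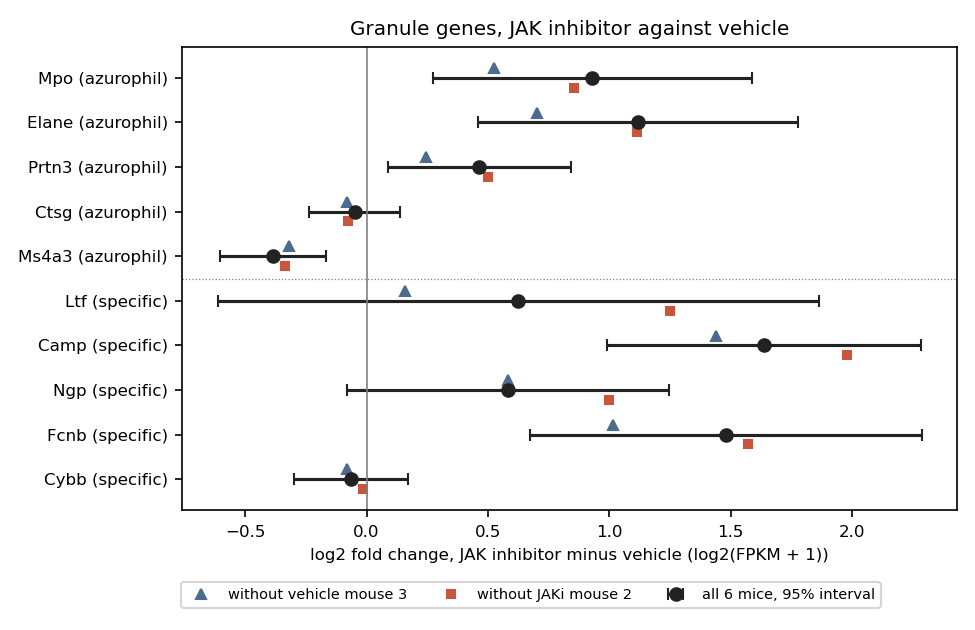
Log2 fold change of each gene, JAK inhibitor minus vehicle, on the log2(FPKM + 1) scale (x axis), with its 95% interval in limma (black points and bars), without vehicle-treated mouse 3 (blue triangles) and without JAK inhibitor-treated mouse 2 (red squares). Values ran from -0.39 for Ms4a3 to 1.64 for Camp, and leaving out JAK inhibitor-treated mouse 2 moved Ltf to 1.25 and Ngp to 0.998.

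Summed over the 5 genes of each group, the azurophil genes had 12615, 13270 and 12305 FPKM in JAK inhibitor-treated mice and 9067, 9879 and 5394 in vehicle-treated mice. The specific granule genes had 2554, 1301 and 2108 against 1199, 1081 and 932. Both sums were higher in all treated mice than in all vehicle-treated mice. They weigh each gene by its level and do not show a rise of every gene. Mpo and Elane gave most of the azurophil sum in treated mice, while Ctsg overlapped and Ms4a3 was lower. Camp was the largest part of the specific granule sum in every treated mouse, while Ltf, Ngp and Cybb overlapped. The ratio of the azurophil to the specific granule sum overlapped between the groups, with 4.94, 10.2 and 5.84 against 7.56, 9.14 and 5.79. The value of 10.2 in JAK inhibitor-treated mouse 2 came with the lowest specific granule sum of its group and the highest azurophil sum. The difference of the median log2 fold changes (-0.16) had both signs when a mouse was left out, from -0.75 without JAK inhibitor-treated mouse 2 to 0.12 without JAK inhibitor-treated mouse 1.

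Mice also differed within a group along the granule stages. In JAK inhibitor-treated mouse 2, the specific granule genes Ltf, Camp and Ngp were the lowest of its group. Of the 8 mature neutrophil markers, S100a8, S100a9, Retnlg, Il1r2 and Stfa2l1 were also lowest there, while Cxcr2, G0s2 and Csf3r, the receptor of granulocyte colony-stimulating factor, were not. Retnlg, a resistin-like gene of mature neutrophils, had 49.8, 2.51 and 53.1 FPKM in treated mice 1 to 3, and S100a8 of calprotectin had 9820, 4970 and 8430. Among the azurophil genes, mouse 2 had the highest Mpo of all mice and the highest Ctsg of its group, but the lowest Prtn3 and Ms4a3 of its group. In vehicle-treated mouse 3, which had the lowest Mpo, Elane, Prtn3, Ltf, Camp and Fcnb of all mice, S100a8 was the highest (15469 FPKM), as was Il1r2, the decoy receptor of interleukin-1, with 846 FPKM against 4.96 to 58.4 in the other mice. S100a9, Cxcr2 and Stfa2l1 were the highest there as well, whereas G0s2 (3.36 FPKM) and Csf3r (44.1 FPKM) were the lowest of all mice and Retnlg (13.2 FPKM) was the lowest of the vehicle group, so the markers of mature neutrophils did not move together in this mouse.

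The other genes of the granules were taken from written lists. Of 8 further azurophil or primary granule genes, none was higher and 1 was lower at an unadjusted p under 0.05 in limma, and their median log2 fold change was 0.03. Of all tested genes 6.57% were higher and 9.4% lower at that threshold, so 1 lower gene of 8 is near the share of all genes. The gene that was lower is Ctsc, whose product, dipeptidyl peptidase I, cuts the proforms of elastase, proteinase 3 and cathepsin G to their active form. It had 423, 414 and 488 FPKM against 532, 545 and 499, a log2 fold change of -0.25 (limma adjusted p = 0.231) opposite in sign to those of Elane and Prtn3. Prss57, a further serine protease of these granules, had 50.8, 43.6 and 42 FPKM against 37.9, 42.3 and 22.1, a log2 fold change of 0.45 with overlap. Srgn, the proteoglycan that holds granule proteases, and Serpinb1a, an inhibitor of elastase, had log2 fold changes of 0.05 (95% interval -0.15 to 0.26 in limma) and 0.06 (95% interval -0.16 to 0.28 in limma). Lyz1 and Lyz2 are near-identical copies, so their values are uncertain, and neither passed the unadjusted threshold.

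The 11 further specific granule genes split in both directions. At an unadjusted p under 0.05 in limma, 2 were higher (against 6.57% of tested genes) and 6 were lower (against 9.4%), and 1 of the 6 also passed the adjusted threshold. Chil3, the gene of the chitinase-like protein Ym1, which macrophages also make, fell (log2 fold change -1.39, standard error 0.16, limma adjusted p = 0.0189), from 10281, 8838 and 10575 FPKM to 4044, 2945 and 4440. Its limma adjusted p was above 0.05 in 4 of the 14 alternatives, which were without JAK inhibitor-treated mouse 1 (0.0713) or mouse 3 (0.0744), without the filter (0.216) and without the trend (0.0792). Cd177, a surface protein of neutrophil subsets, had 51.8, 37.6 and 50.9 FPKM with JAK inhibitor and 23.5, 31.6 and 27.2 with vehicle. Pglyrp1, a peptidoglycan recognition protein, had 779, 565 and 634 against 558, 414 and 298. Both were without overlap on the higher side, with log2 fold changes of 0.74 (limma adjusted p = 0.109) and 0.67 (limma adjusted p = 0.183).

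On the lower side were Lcn2, Mmp8 and Hp, which encode the siderophore-binding protein lipocalin-2, neutrophil collagenase and haptoglobin. Their log2 fold changes were -1.66, -1.06 and -0.84 (limma adjusted p = 0.0665, 0.109 and 0.117), each without overlap. The limma adjusted p of Lcn2 was below 0.05 without vehicle-treated mouse 2 (0.0253) or mouse 3 (0.0229), with weights for each library (0.0263), with 1 FPKM required in 3 mice (0.0435) and with the replicate block (0.00307). That of Mmp8 was 0.0455 without vehicle-treated mouse 3. Over the alternatives the limma adjusted p ranged from 0.00307 to 0.231 for Lcn2 and from 0.0233 to 0.309 for Mmp8. Lcn2 had 351, 220 and 375 FPKM with JAK inhibitor and 933, 699 and 1413 with vehicle. The ratio of Camp to Lcn2 within a mouse was therefore 3.13, 2.14 and 2.2 against 0.283, 0.414 and 0.129. Camp and Lcn2 are products of the same granule class and lay on opposite sides of vehicle in these libraries. Lcn2, Hp and Chil3 are also induced in cells other than maturing neutrophils.

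Of the gelatinase granule and secretory vesicle list, 5 of 6 genes were tested, since Mmp25 stayed below 1 FPKM in every mouse. All 5 had a negative log2 fold change, with a median of -1.05, and 4 had an unadjusted p under 0.05 in limma, against 9.4% of tested genes that were lower. Which of the sorted cells carried these mRNAs was not tested, so the values are not a measure of a neutrophil stage. The formyl peptide receptor Fpr2 had 65.6, 44.8 and 60.2 FPKM against 129, 93.9 and 198 (log2 fold change -1.24, limma adjusted p = 0.102). Fpr1 (-1.05), Cd14, a co-receptor for LPS (-0.83), and Mmp9, the gelatinase (-1.32, with overlapping groups), had limma adjusted p from 0.118 to 0.282. Mmp9 rested on single mice, with -0.66 without vehicle-treated mouse 3 and -2.01 without vehicle-treated mouse 2 (limma adjusted p = 0.0396). Without vehicle-treated mouse 2 the limma adjusted p was 0.0268 for Fpr2 and 0.0334 for Fpr1, and without vehicle-treated mouse 3 it was 0.0455 for Fpr2. Over the alternatives it ranged from 0.026 to 0.302 for Fpr2 and from 0.0324 to 0.322 for Fpr1. Of the other NADPH oxidase subunits, Ncf4 had a log2 fold change of -0.25 (limma adjusted p = 0.277), and 5 of the 6 subunits had a value below 0, with a median of -0.09.

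**Figure D4:**
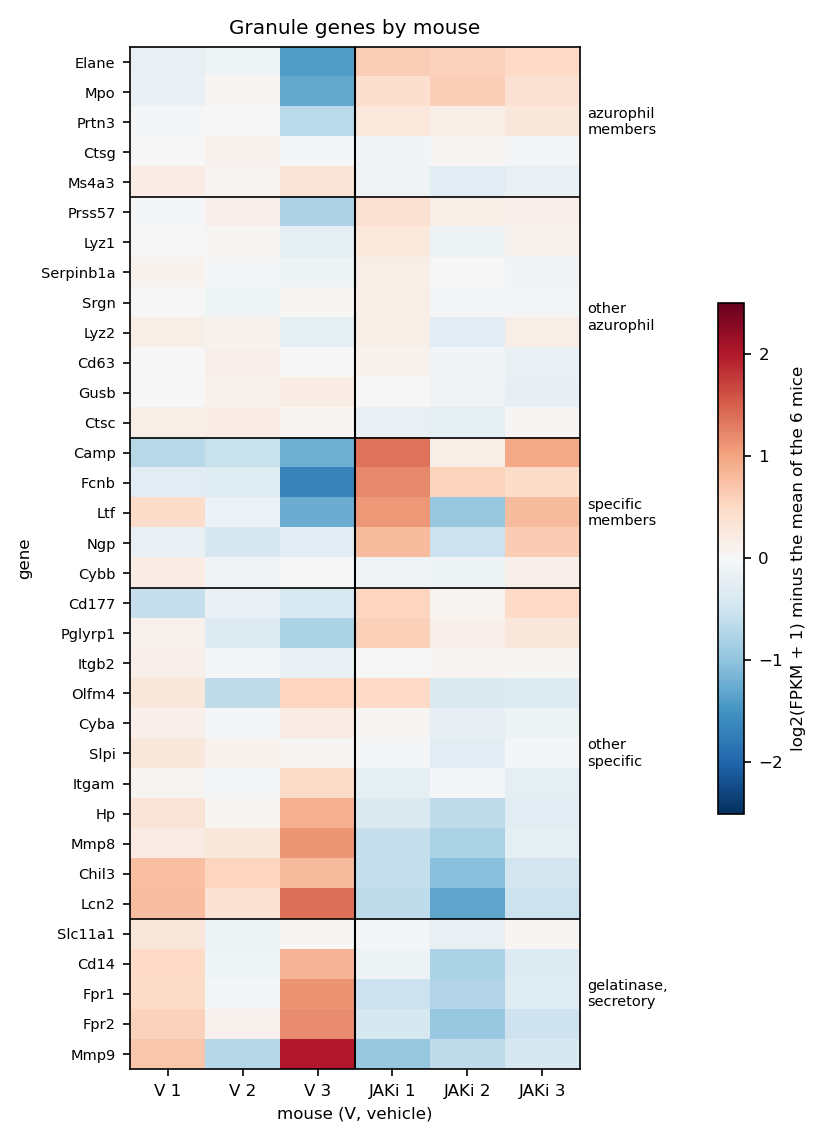
Log2(FPKM + 1) of each tested granule gene (rows, grouped by list and ordered by log2 fold change) minus its mean over the 6 mice (columns), as color from -2.5 (blue) to 2.5 (red). Elane, Mpo, Camp and Fcnb lie above their mean in the 3 JAK inhibitor-treated (JAKi) mice, though only slightly for Camp in JAKi mouse 2. Lcn2, Chil3, Mmp8 and Fpr2 lie above theirs in the vehicle-treated (V) mice, most of all in vehicle-treated mouse 3 for Lcn2, Mmp8 and Fpr2. The color is faint for Fpr2 in vehicle-treated mouse 2 and for Mmp8 in vehicle-treated mice 1 and 2.

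Of 11 transcription factors of granulocyte and monocyte formation, 4 were higher and 1 was lower at an unadjusted p under 0.05 in limma, against 6.57% and 9.4% of tested genes. None passed the adjusted threshold. Cebpe, which is needed for specific granules, had 29, 18.9 and 17.4 FPKM with JAK inhibitor and 15.8, 14.2 and 15.2 with vehicle, a log2 fold change of 0.47 (limma adjusted p = 0.253) without overlap, which was 0.26 without JAK inhibitor-treated mouse 1. Irf8, which directs progenitors to monocytes, had 255, 264 and 236 FPKM against 180, 205 and 112, with the lowest value in vehicle-treated mouse 3 (log2 fold change 0.64, limma adjusted p = 0.169, and 0.39 on the log2 scale without that mouse). Myb (0.38) and Klf4 (0.53) were the other 2 on the higher side, with a limma adjusted p of 0.238 and 0.258, and Klf4 was at 0.34 without vehicle-treated mouse 2. Cebpb, the C/EBP factor of emergency granulopoiesis, had a log2 fold change of -0.40 (limma adjusted p = 0.219), or -0.23 without JAK inhibitor-treated mouse 2, while Gfi1 and Spi1 had -0.04 and -0.11.

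Markers of the cells that could carry these mRNAs are given by list, and none of them passed the adjusted threshold in limma. The 6 progenitor markers summed to 103 to 121 FPKM with JAK inhibitor and 83 to 112 with vehicle, and Cd34 (log2 fold change 0.59, limma adjusted p = 0.267) and Cd93 (0.88, limma adjusted p = 0.117) were higher at an unadjusted p under 0.05. Without vehicle-treated mouse 2 the limma adjusted p was 0.0368 for Cd34 (log2 fold change 0.88) and 0.0359 for Cd93, and without vehicle-treated mouse 3 Cd34 was at 0.36. Of 8 mature neutrophil markers found in the tables, 3 were lower (Il1r2, Cxcr2 and Stfa2l1) and 1 was higher (G0s2) at that threshold, and their sum of 6454 to 13269 FPKM overlapped with 9830 to 20603 in vehicle-treated mice. Without vehicle-treated mouse 3 the log2 fold change of Il1r2 was -2.44 in place of -3.86 (limma adjusted p = 0.00855) and that of G0s2 0.73 in place of 1.14. The macrophage list had 5 of 9 tested genes lower (Marco, C1qa, C1qb, C1qc and Mertk) and none higher, with sums of 142 to 241 FPKM against 286 to 460 and Timd4 at 0 in 5 of the 6 mice. C1qb had a log2 fold change of -1.78 (limma adjusted p = 0.0721, and 0.00909 without vehicle-treated mouse 3), and Mertk -1.57, or -0.999 without that mouse. Over the alternatives the limma adjusted p reached 0.498 for Cd34, 0.3045 for Cd93, 0.322 for Il1r2 and 0.25 for C1qb. The monocyte list (5687 to 6192 FPKM against 4412 to 6322) and the cell cycle list (1144 to 1166 against 1025 to 1282) had 1 lower gene each, Ms4a6c and Ccnb1, and none higher. At the unadjusted threshold 6.57% of all tested genes were higher and 9.4% lower, and 1 lower gene in lists of this size is near that share. The part of the listed cells in the values of the granule genes was not tested.

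The sorted cells also held mRNA of basophil, eosinophil and mast cell genes. The 6 markers summed to 2587 to 4069 FPKM with JAK inhibitor and 1777 to 3530 with vehicle, mostly from the basophil proteases Prss34 (923 to 2338 FPKM over all mice) and Mcpt8 (463 to 1130 FPKM). Mcpt8 (log2 fold change 0.60, limma adjusted p = 0.267) and Epx, eosinophil peroxidase (0.99, limma adjusted p = 0.213), were higher at an unadjusted p under 0.05, with overlap. Mcpt8 was at 0.36 without vehicle-treated mouse 3 and Epx at 0.60 without JAK inhibitor-treated mouse 1. Ms4a3 is also expressed by basophil progenitors. The part of these cells in the granule genes was not tested. In the B cell list, Cd79b of the B cell receptor was the tested gene, with 26.7 to 35.4 FPKM over all mice, while Ms4a1 and Ebf1 were listed at 0 in every mouse, and Cd3e of T cells stayed at or below 0.385 FPKM. Nkg7, which stands in the T and NK cell list, had 489 to 557 FPKM against 167 to 363 (log2 fold change 0.92, limma adjusted p = 0.147), and without vehicle-treated mouse 3 these were 0.57 and 0.0278. The erythroid list summed to 6.1 to 51.1 FPKM against 0.696 to 2.77. Of its 4 tested genes, Hba-a1 (log2 fold change 2.855, limma adjusted p = 0.159) and Klf1 (1.25, limma adjusted p = 0.147) were higher at an unadjusted p under 0.05. Hba-a1 had 38.6 FPKM in JAK inhibitor-treated mouse 3, against 2.64 and 1.96 in mice 1 and 2. In the dendritic cell list, with 3 tested genes, Cd209a was higher (1.16, limma adjusted p = 0.277), with overlap. Of all tested genes 6.57% were higher at that threshold.

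The genes most like each group were sought among 7731 other genes with a mean of at least 5 FPKM, by the root mean square distance between log2(FPKM + 1) profiles over the 6 mice, each centered on its mean. Cyth3, Lsp1, Oxct1, Stk16 and Magt1 lay nearest to the mean profile of the azurophil genes, at 0.04 to 0.05 on the log2 scale. That mean profile was 0.19 to 0.22 in the treated mice, -0.04 and 0.03 in vehicle-treated mice 1 and 2 and -0.61 in mouse 3. The azurophil genes themselves lay 0.05 to 0.49 from it, so the mean describes none of Elane, Mpo, Ctsg and Ms4a3 closely. For the specific granule genes the nearest were Gstm5 (0.13), Raly (0.22), 4930455G09Rik (0.22), Pglyrp1 (0.23) and Tnfsf13 (0.24), and the members lay 0.29 to 0.58 from their own mean. Pglyrp1 is the gene among them that is also a specific granule gene by list.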

How the data were processed

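RNA-Seq was available for 3 JAK inhibitor-treated and 3 vehicle-treated mice. The authors deposited 1 table of FPKM per mouse. The submitters' processing notes name TopHat2 2.0.13, Bowtie2 2.2.3, SAMtools 0.1.19, Cufflinks 2.2.1 and the build mm10, and the annotation and settings are not given in the sources used here. The labels name a SMART-Seq HT cDNA and a Nextera library, and the methods a TruSeq Stranded mRNA kit. Read counts were not used, and depth is unknown.

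Genes with at least 1 FPKM in at least 1 mouse were compared on log2(FPKM + 1), a scale that understates changes of low genes, with limma 3.58.1 in R 4.3.3 (trended empirical Bayes, with p-values adjusted over all tested genes by Benjamini-Hochberg). The fit was first tested on simulated data. Other steps used SciPy 1.17.1, NumPy 2.4.6, pandas 2.3.3 and matplotlib 3.10.9 under Python 3.11.15. The genes and lists were chosen with earlier results of these data known. Named were all 10 genes, up to 5 genes of each list with the smallest unadjusted p under 0.05, the 5 genes nearest to each mean profile, and genes whose values stand beside a result; Retnlg, S100a8, S100a9, Csf3r, Cd79b and Prss57 and the gene pairs set in ratio were singled out after their values were seen. Deviations of same-numbered mice from their group means had correlations of -0.000164 to 0.0542. Those of differently numbered mice had -0.038 to 0.0187, and the 0.0542 of number 2 lay above that range. Correlations over all tested genes cannot settle whether the numbers mark a pairing. The methods of the study name none, so the numbers were not used as a pairing in the main fit. The 14 alternatives changed the pseudocount (0.1), filter, normalization, model, block or mice.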

Additional observations from a re-analysis of the deposited data

How the results depend on the processing

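The number of genes past an adjusted p of 0.05 in limma was 15. It was 2 without a filter, 34 with at least 1 FPKM in at least 3 mice, 2 without the trend, 63 with weights for each library and 67 with the replicate block, and it ranged from 3 to 95 when 1 mouse was left out (3 without JAK inhibitor-treated mouse 3, 5 without mouse 1 and 6 without mouse 2, and 95 and 94 without vehicle-treated mouse 2 or 3). The cause was not tested. The members with an unadjusted p under 0.05 numbered 6, and 5 to 8 over the 14 alternatives. With 1 mouse left out, the median log2 fold change ranged from 0.25 to 0.58 for the azurophil genes (main 0.47), from 0.34 to 1.25 for the specific granule genes (main 0.63), and their difference from -0.75 to 0.12 (main -0.16). Prtn3 did not pass the unadjusted threshold in 3 of the 14 alternatives, and Mpo, Elane, Ms4a3, Camp and Fcnb passed it in all 14. Cybb ranged from -0.142 to 0.009 with 1 mouse left out and was above 0 without vehicle-treated mouse 1, the sole change of sign among 140 alternative values of the 10 genes. Nothing but the number is known to link the same-numbered mice. With that number as a block the adjusted p of Fcnb in limma was 0.0443 at a log2 fold change of 1.48. No other member had an adjusted p under 0.05 there. Among other granule genes and beside Lcn2, the block gave Mmp8 (0.0233), Hp (0.0321), Fpr1 (0.0324), Fpr2 (0.026) and Cd14 (0.0488) a limma adjusted p below 0.05, and among marker genes C1qa, C1qb, Marco and Mcpt8 (0.00467 to 0.0443). Quantile normalization put 888 genes higher and 918 lower at an unadjusted p under 0.05, against 742 and 1062. The filter was applied anew to the mice that remained. Depth is unknown, so no limit from counts can be given.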
